A study of Mus musculus with 48 samples.

Results

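The enteroendocrine hormone and granule genes are 10 genes chosen by symbol: the granins Chgb and Chga, the peptide hormone genes Sct, Cck, Gip, Gcg and Sst, the serotonin enzyme Tph1 and the transcription factors Pax6 and Neurod1. The array table annotates 16 probes to these 10 genes, and 10 of the probes had a value on all 48 arrays. They gave 9 genes out of the 13065 that could be tested, and Neurod1 was read only where its single probe had values.

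RNA of jejunal epithelium came from female C57BL/6 mice that received TCDD (2,3,7,8-tetrachlorodibenzo-p-dioxin, a persistent ligand of the aryl hydrocarbon receptor) at 0.01 or 0.03 µg/kg, 0.1 or 0.3 µg/kg, 1 or 3 µg/kg and 10 or 30 µg/kg, or the sesame oil vehicle alone. Per the labels, the gavage was repeated at intervals of 4 days over 28 days, although the word daily also appears in a label. The labels give no age. Each of 24 treated animals was hybridised against 1 of 3 vehicle animals on 2 dye-swapped arrays, so that each dose has 3 animal pairs. The 3 vehicle animals were shared by all doses, so the doses are not independent, and replicates 1, 2 and 3 stand for the vehicle animals throughout. Values are log2 ratios of the treated over the vehicle animal, averaged over the 2 arrays of a pair. The log base and the sign are not stated in the sources used here. The base was taken as 2, and the sign is likely, because the TCDD-induced gene Cyp1a1 was above 0 on 12 of 12 arrays at 10 and 30 µg/kg in either dye orientation. The table holds no intensities, so the level of a gene, and with it the presence of enteroendocrine markers in the epithelium, could not be checked.

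Enteroendocrine cells are scattered hormone-secreting cells of the gut epithelium that sense nutrients in the lumen. They store peptides or serotonin in dense-core granules, whose matrix is built from the granins, and release them toward blood vessels and nerve endings. Pancreatic islets use many of the same hormones, granule proteins and transcription factors, so pancreas tissue in a jejunal sample can contribute their transcripts.

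The stretches of 250 bases before the annotated start sites of Chgb, Chga and Sst are shown, because Chgb was the member called at the highest dose, Chga encodes the other chromogranin, and Sst carries the textbook cAMP response element. They are RefSeq sequences of assembly GRCm38.p6, at chr2:132781392-132781641 on the plus strand, chr12:102554691-102554940 on the plus strand and chr16:23890845-23891094 on the minus strand. Capitals mark TGACGTCA, the cAMP response element, and GCGTG, the core of the site bound by the aryl hydrocarbon receptor.
Chgb: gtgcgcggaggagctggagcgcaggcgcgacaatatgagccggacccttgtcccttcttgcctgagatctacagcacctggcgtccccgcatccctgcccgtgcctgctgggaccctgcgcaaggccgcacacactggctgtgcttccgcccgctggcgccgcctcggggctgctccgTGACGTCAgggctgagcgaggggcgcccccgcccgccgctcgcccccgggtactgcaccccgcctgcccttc
Chga: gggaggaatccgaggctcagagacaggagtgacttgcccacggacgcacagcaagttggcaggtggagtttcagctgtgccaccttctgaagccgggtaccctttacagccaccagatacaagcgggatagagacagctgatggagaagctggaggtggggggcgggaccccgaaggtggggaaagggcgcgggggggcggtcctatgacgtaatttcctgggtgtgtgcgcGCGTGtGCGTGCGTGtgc
Sst: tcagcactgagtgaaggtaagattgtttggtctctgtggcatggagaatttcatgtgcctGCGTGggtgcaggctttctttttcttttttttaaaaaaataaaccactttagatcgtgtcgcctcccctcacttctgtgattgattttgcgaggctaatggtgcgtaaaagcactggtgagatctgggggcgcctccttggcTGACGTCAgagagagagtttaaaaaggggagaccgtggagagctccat

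The element TGACGTCA lies 72 bases before the start site of Chgb, 48 before that of Sst and, in a stretch not printed, 76 before that of Pax6. It was found in 3 of the 12 stretches that RefSeq gives for the 10 members, against 1.55% of all 32851 stretches of the same length. The core GCGTG was found in 5 of the 12 stretches, against 28.2% of all. Chga has 3 copies of it, 18, 12 and 8 bases before its start site, and the last 2 share a base. Pax6 and Tph1 have 2 copies each, and Sst and Neurod1 have 1 each. Neither motif was found in this window of Sct, Cck, Gip or Gcg, and Chgb has no GCGTG there. The shorter TGACG, which TGACGTCA contains, is not marked in the printed stretches. It was found in 8 of the 12 stretches, with 1 match each in Chga and Cck, against 17.8% of all stretches. Both strands were searched, and the matches describe letters only.

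Chgb encodes chromogranin B, an acidic protein of the granule matrix. At 30 µg/kg its log2 ratios were 0.38, 0.11 and 0.66 in replicates 1, 2 and 3. All 3 were above 0, and only that of replicate 3 was above every pair of the lower doses, whose highest was 0.42. The mean was 0.38 ± 0.27 (SD, n = 3; 95% interval 0.22 to 0.55), or 1.31-fold, and passed the test against 0 (limma adjusted p 0.0106 over all 13065 genes). At 10 µg/kg the 3 pairs gave 0.22, 0.23 and 0.42. Their mean of 0.29 ± 0.12 did not pass (adjusted p 0.28). The means at the 6 lower doses, in order from 0.01 to 3 µg/kg, were 0.17, 0.07, 0.18, 0.04, 0.12 and 0.13, and none of these passed. Chgb was above 0 in 22 of 24 pairs, the most of the 9 members, with its exceptions in replicate 2 at 0.03 µg/kg (-0.11) and at 0.3 µg/kg (-0.03). In a bulk RNA ratio, fewer or more cells of a type and less or more RNA per cell cannot be told apart.

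The Chgb call at 30 µg/kg is the single one among 9 members at 8 doses. At that dose 4.29% of all genes were called and 0.873% were called higher, so 1 call in 9 members is not read as a property of the group. The shares of all genes called at the other doses were 0% at 0.01, 0.0153% at 0.03, 0.0230% at 0.1, 1.42% at 0.3, 0% at 1, 0% at 3 and 0.237% at 10 µg/kg, and 0 members were called at any of them. At an unadjusted p under 0.05, 3 members passed at 10 µg/kg, 4 at 30 µg/kg and 1 at each other dose. Of the 13065 genes 943 passed in this way at 10 µg/kg, 2607 at 30 µg/kg and 462 to 2398 at the other doses. The Chgb call was lost with replicate 1 or replicate 3 left out. With every pair of replicate 1 left out the Chgb mean was little changed at 0.39 (limma adjusted p 0.12). With replicate 3 left out it fell to 0.25 (adjusted p 0.192). With every pair of replicate 2 left out Chgb stayed called at 0.52 (adjusted p 0.0163). Over all genes, 561 calls at 30 µg/kg became 212, 255 and 192 with replicate 1, 2 or 3 left out.

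Chga, which encodes chromogranin A, the granin used as the general marker of endocrine cells, was not called at any dose. Its log2 ratios at 30 µg/kg were 0.27, -0.15 and 0.29, with replicate 2 on the other side of 0. The mean was 0.14 ± 0.25 (adjusted p 0.355). At 10 µg/kg all 3 pairs were above 0, at 0.32, 0.39 and 0.10, with a mean of 0.27 ± 0.15 (adjusted p 0.391). At 3 µg/kg the pairs lay close together at 0.18, 0.13 and 0.21 (mean 0.17, adjusted p 0.999). Chga was above 0 in 18 of 24 pairs, and its pair values ran from -0.15 to 0.39 with a median of 0.13.

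Sct encodes secretin, the hormone that stimulates bicarbonate secretion by the pancreas. At 30 µg/kg it had log2 ratios of 0.56, 0.26 and 0.28, all above 0. The mean of 0.37 ± 0.17 (95% interval 0.15 to 0.59) lay just outside the threshold, with a limma adjusted p of 0.05005. With the shared vehicle animal as a replicate block the same mean passed with an adjusted p of 0.0344. With each array centred on its median Sct passed at 0.42 (adjusted p 0.0364). It did not pass after quantile normalization (adjusted p 0.169) or with the pancreas signal described further on as a covariate (0.30, adjusted p 0.265). Nor did Sct pass without replicate 1 (0.27, adjusted p 0.329), replicate 2 (0.42, adjusted p 0.121) or replicate 3 (0.41, adjusted p 0.0949). From treated animals in Cy5 alone the Sct mean was 0.12 (adjusted p 0.507), and from those in Cy3 alone 0.62 (adjusted p 0.00434). At 10 µg/kg the pairs spread over 0.38, 0.47 and -0.17, and the mean of 0.23 ± 0.34 did not pass (adjusted p 0.666). The means at the other 6 doses were between 0.08 and 0.17, so Sct, like Chgb, had a mean above 0 at 8 of 8 doses.

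Cck encodes cholecystokinin, which empties the gallbladder and signals satiety. Its log2 ratios at 30 µg/kg were -0.04, -0.05 and 0.23, with the pair of replicate 3 alone above 0. The mean was 0.05 ± 0.16 (adjusted p 0.764). Cck is the one member with a pair of complete probes, and they differed at this dose. One gave -0.13, -0.16 and 0.46, and the other 0.06, 0.06 and -0.01. The high value of replicate 3 therefore came from 1 probe.

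Gip encodes the glucose-dependent insulinotropic polypeptide, an incretin of the upper small intestine. Gip was the most variable of the 9 members with a complete probe, with pair values from -0.57 to 0.31 and an SD of 0.21 over the 24 pairs. Its 3 pairs gave -0.37, -0.41 and 0.31 at 30 µg/kg (mean -0.15 ± 0.41, adjusted p 0.497). At 0.03 µg/kg all 3 were below 0, at -0.06, -0.57 and -0.23, and the mean of -0.29 ± 0.26 did not pass (adjusted p 0.465).

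Gcg encodes proglucagon, which intestinal L cells cut into the glucagon-like peptides and islet alpha cells into glucagon. It was above 0 in 9 of 24 pairs, the fewest of the members, with a median of -0.07. At 30 µg/kg the log2 ratios were -0.48, -0.03 and 0.01, and at 10 µg/kg they were -0.42, -0.09 and 0.06. At either dose the low value belonged to replicate 1, and the means of -0.17 ± 0.27 and -0.15 ± 0.25 did not pass (adjusted p 0.354 and 0.767). At 0.3 µg/kg all 3 pairs were below 0, at -0.29, -0.10 and -0.28 (mean -0.22 ± 0.10, adjusted p 0.228). A second Gcg probe, with values on 21 arrays, had all 3 pairs at 0.1 µg/kg and gave 0.08, 0.19 and 0.23 there, where the complete probe gave 0.02, 0.24 and -0.11.

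Sst encodes somatostatin, the inhibitory hormone of D cells. Its means lay between -0.01 and 0.14 from 0.01 to 10 µg/kg. The pairs at 30 µg/kg gave -0.22, -0.29 and 0.01, with the first 2 below every pair of the other doses. The mean of -0.17 ± 0.16 (95% interval -0.29 to -0.04) did not pass (adjusted p 0.117). Without replicate 2 the mean was -0.10 (adjusted p 0.563), and without replicate 3 it was -0.26 (adjusted p 0.062), neither called. With the pair of replicate 3 left out at 30 µg/kg alone, an alternative added after seeing the data, Sst was called lower (adjusted p 0.0473).

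Tph1 encodes tryptophan hydroxylase, the rate-limiting enzyme of serotonin synthesis in enterochromaffin cells. Its pairs at 30 µg/kg gave 0.20, -0.21 and 0.20 (mean 0.06 ± 0.24, adjusted p 0.741). Its highest pair value, 0.39, was that of replicate 1 at 10 µg/kg, where replicates 2 and 3 gave -0.07 and 0.00. No direction is visible across its pairs, with 12 of 24 above 0.

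Pax6 encodes a paired-box factor that acts in endocrine differentiation of gut and islets. All 3 pairs were below 0 at 30 µg/kg, at -0.23, -0.05 and -0.25, and the mean of -0.17 ± 0.11 (95% interval -0.32 to -0.03) did not pass (adjusted p 0.172). At the other doses its means lay between -0.04 and 0.13.

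Neurod1 encodes a basic helix-loop-helix factor downstream of the endocrine commitment factor Neurog3. Its probe had values on 36 of 48 arrays and for 16 of 24 pairs. At 0.03 µg/kg the 3 pairs gave -0.27, -0.45 and -0.86, with a mean of -0.53 ± 0.30 (95% interval -0.74 to -0.32). This did not pass among the 24838 probes complete at that dose, of which 2 were called (adjusted p 0.186). At 1 µg/kg, the other dose with 3 pairs, they gave -0.16, 0.07 and -0.04, and the 2 pairs measured at 30 µg/kg gave 0.04 and 0.06. The SD expected from the disagreement of the 2 arrays of a pair was 0.26 for this probe, as large as the SD of 0.26 between its pairs.

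**Figure D1:**
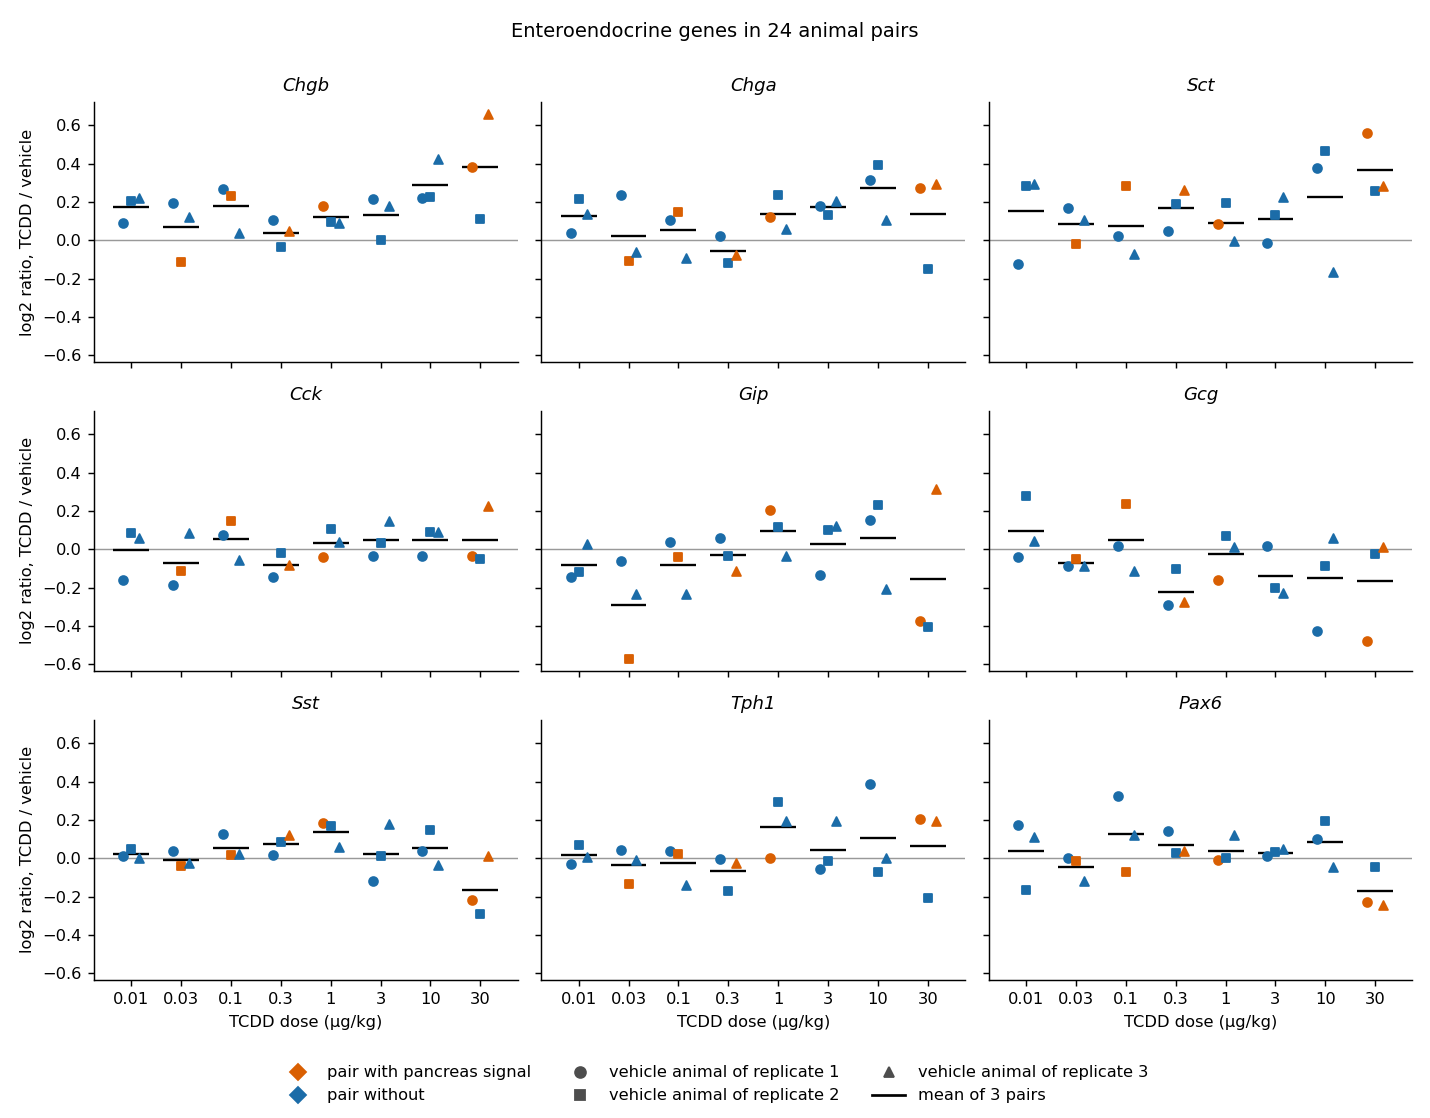
Log2 ratio of the TCDD over the vehicle animal (y axis) against dose in µg/kg (x axis, 8 evenly spaced steps) for the 9 members with a complete probe. Each point is 1 animal pair, its shape gives the vehicle animal and its colour the pancreas signal, and bars are means of 3 pairs. Chgb and Sct have means above 0 at 8 of 8 doses, while Sst and Pax6 dip at 30 µg/kg.

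The members therefore did not share a direction at 30 µg/kg, where 5 of 9 means were above 0, against 31.4% of all genes. The members' median was 0.05 at that dose, against -0.05 over all 13065 genes. At 1, 3 and 10 µg/kg 8 of 9 member means were above 0, against 73.8%, 56.8% and 50.0% of all genes. The median of the members at 10 µg/kg was 0.08, while that of all genes rounds to 0. The median of the members was above that of all genes at each of the 8 doses. These doses share 3 vehicle animals and are not independent repeats, and the members were chosen with earlier results of these data known.

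A slope on log10 dose asked whether a member changed in proportion to the logarithm of dose over all 24 pairs. Chgb had the steepest rise, 0.061 per 10-fold step of dose (95% interval 0.007 to 0.114), which did not pass (limma adjusted p 0.40). Sct followed at 0.054, Chga at 0.045, Gip at 0.040, Tph1 at 0.035 and Cck at 0.026. Gcg had the steepest fall, -0.061 (95% interval -0.121 to -0.0004, adjusted p 0.47), ahead of Pax6 at -0.028 and Sst at -0.024. Among all genes 0.375% had a called slope and 0.283% a called rising one, and 0 of 9 members were called. At an unadjusted p under 0.05 these were Chgb and Gcg, 2 of 9 members, and 1377 of the 13065 genes. Set against the mean of the other 7 doses instead of 0, a contrast chosen after seeing the data, the difference at 30 µg/kg was 0.24 for Chgb (adjusted p 0.175), 0.24 for Sct (0.339), -0.22 for Sst (0.0954) and -0.22 for Pax6 (0.154). The rise of Chgb at 30 µg/kg over vehicle was thus not shown to exceed its level at lower doses.

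**Figure D2:**
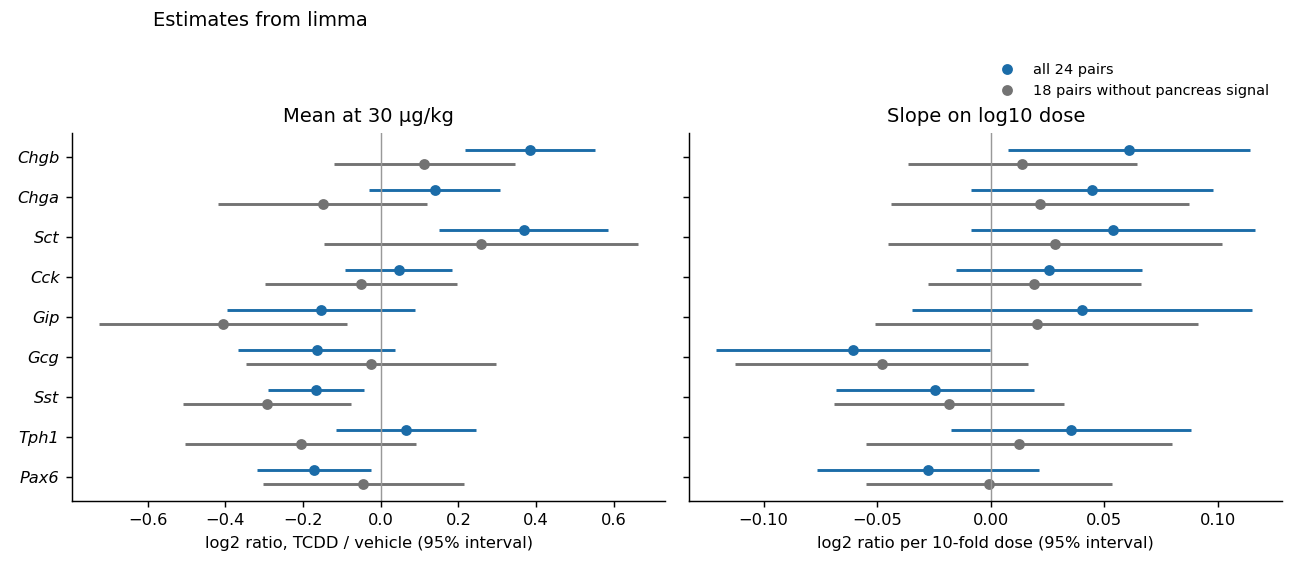
The left plot gives the mean log2 ratio at 30 µg/kg and the right plot the slope per 10-fold step of dose, with 95% intervals from limma, for the 9 members. Blue is the fit of all 24 pairs and grey that of the 18 pairs without pancreas signal, in which 30 µg/kg has 1 pair left. Chgb drops to 0.11 at 30 µg/kg in the grey fit.

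The 2 arrays of a pair tracked each other for the granins but were offset by dye. Chgb averaged 0.32 on arrays that held the treated animal in Cy5 and 0.02 on the swapped arrays. In the same order Chga averaged -0.13 and 0.35, and Sct -0.03 and 0.35. The offset cancels in the mean of the 2 arrays. After it was removed, the SD expected from array disagreement alone was 0.041 for Chgb and 0.038 for Chga, against SDs between pairs of 0.16 and 0.15, so differences between pairs of these genes were well resolved. For Gip the values were 0.15 and 0.21, and for the second Cck probe 0.16 and 0.12, so that probe did not resolve its pairs. A single dye orientation changed which members were called. With the treated animal in Cy5, Chgb was called at 0.1, 10 and 30 µg/kg, Chga at 0.3 and Sst and Pax6 at 30 µg/kg, the last 3 lower. With it in Cy3, Chga was called at 3, 10 and 30 µg/kg and Sct at 0.3 and 30 µg/kg, all higher.

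**Figure D3:**
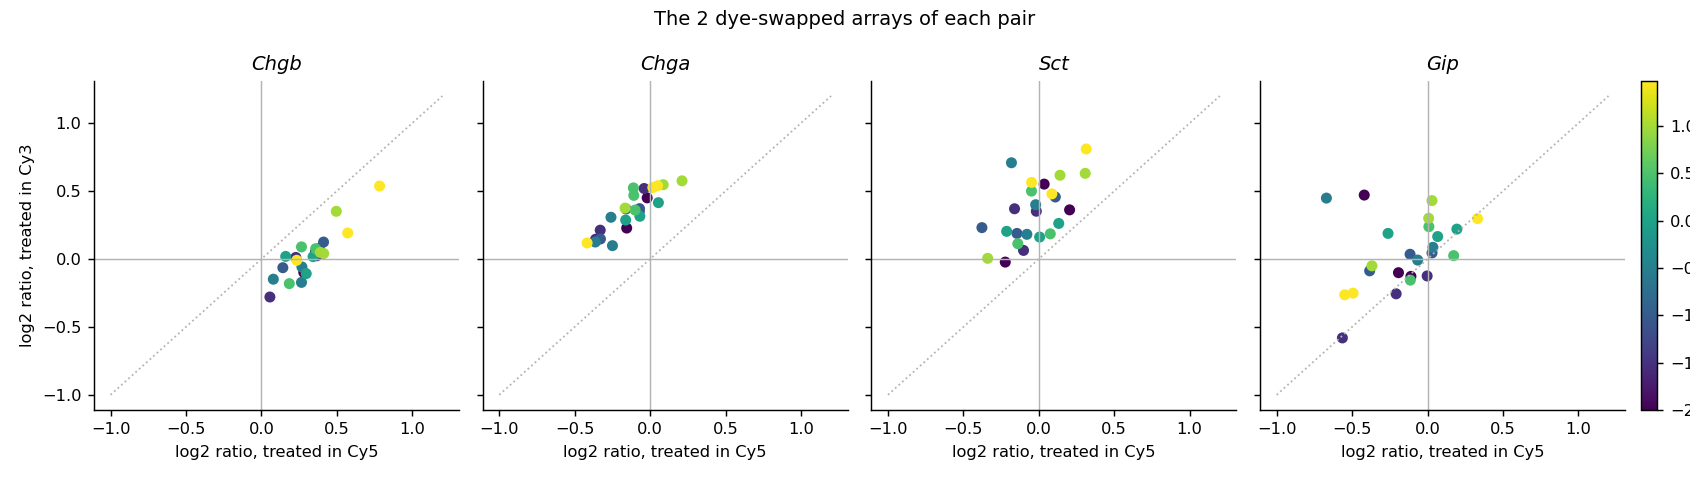
Log2 ratio on the array that held the treated animal in Cy5 (x axis) and on its swap (y axis) for the 2 arrays of each of 24 pairs, coloured by log10 dose. Points of Chgb lie below the dotted line of equality and those of Chga above it, each in a narrow band, while Gip scatters.

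Pancreas transcripts were present in some samples. The median of the acinar enzyme genes Prss2, Cpa1 and Cela1 was above 0.5 in 6 of 24 pairs, where it ran from 1.43 to 3.67, and between -0.15 and 0.21 in the other 18. The same 6 pairs passed a threshold of 0.25 or of 1. They were replicate 2 at 0.03 and 0.1 µg/kg, replicate 3 at 0.3 µg/kg, replicate 1 at 1 µg/kg and replicates 1 and 3 at 30 µg/kg. Over a list of exocrine pancreas genes that includes these 3, and so is not independent of the split, 18 of 27 listed were measured. Their median per pair ran from 0.81 to 2.83 in the 6 pairs and from -0.09 to 0.13 in the other 18. At 30 µg/kg 18 of 18 had a mean above 0, with a median of 1.13.

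The pairs with the signal did not stand apart in any member, and the ranges of the 6 and the 18 pairs overlapped in 9 of 9 genes. Chgb ran from -0.11 to 0.66 with a median of 0.21 in the 6 pairs, and from -0.03 to 0.42 with a median of 0.15 in the 18. Its lowest and its highest value in the study both belong to pairs with pancreas signal, and so do those of Gip. The SD of Chgb was 0.27 in the 6 pairs and 0.11 in the 18, and that of Gip 0.34 and 0.17. For Tph1 the SD was smaller in the 6 pairs, 0.13 against 0.15. The difference in spread was not tested. Sct had medians of 0.27 and 0.15, Chga 0.14 and 0.12, Sst 0.01 and 0.03, and Tph1 0.01 and -0.003. Gip had medians of -0.08 and -0.04, Gcg -0.10 and -0.06, and Cck -0.04 and 0.04. Pax6 showed the widest gap in means, -0.09 ± 0.12 (SD, n = 6) against 0.06 ± 0.12 (SD, n = 18), lower in the pairs with the signal. The insulin gene Ins2, made by islet beta cells, ran from -0.14 to 0.13 in the 6 pairs and from -0.15 to 0.27 in the 18, so it did not separate these pairs as the acinar genes did. Of the fixed islet list 4 of 16 genes were measured and 0 were called, with pair medians from -0.13 to 0.06 in the 6 pairs and from -0.24 to 0.16 in the 18.

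With the pancreas median as a covariate beside dose, Chgb changed by 0.0009 per log2 unit of it (95% interval -0.058 to 0.060). The values were 0.038 for Sct, 0.015 for Chga, -0.033 for Gcg, -0.035 for Pax6 and -0.039 for Ins2. Of all 13065 genes 39 were called for this covariate, and 0 of 9 members were (limma adjusted p 0.758 to 0.995). Chgb at 30 µg/kg was 0.38 in that fit and not called (adjusted p 0.0625). With the 6 pairs left out, 30 µg/kg keeps only replicate 2, and Chgb was 0.11 (adjusted p 0.759). Both of the higher Chgb pairs at 30 µg/kg are thus pairs with pancreas signal. The interval over all 24 pairs for a change of Chgb with that signal includes 0.

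**Figure D4:**
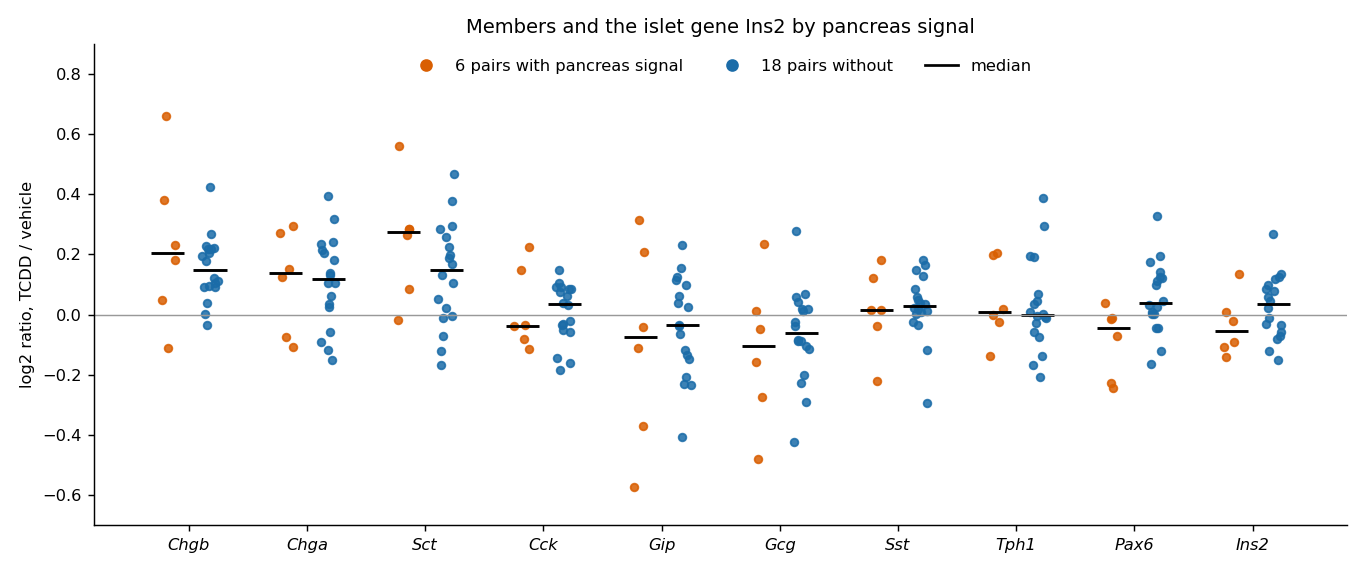
Log2 ratio of TCDD over vehicle (y axis) for the 9 members and the islet gene Ins2, with the 6 pairs with pancreas signal in orange left of the 18 pairs without it in blue. Points are animal pairs spread sideways for visibility and bars are medians. The colours overlap in every gene shown.

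The members varied together only in part across the 24 pairs, a description over values that share vehicle animals, arrays and doses. Among their 36 gene pairs Pearson's r had a median of 0.25, against 0.11 over all gene pairs, and 30.2% of all gene pairs reached the median of the members. The closest were Sst with Gip (0.68), Chga with Tph1 (0.67), Chgb with Chga (0.62) and Chga with Gip (0.60). In the 18 pairs without pancreas signal these were 0.77 for Sst with Gip, 0.49 for Chgb with Chga and 0.72 for Chga with Gip. The lowest was Chgb with Pax6 at -0.39.

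**Figure D5:**
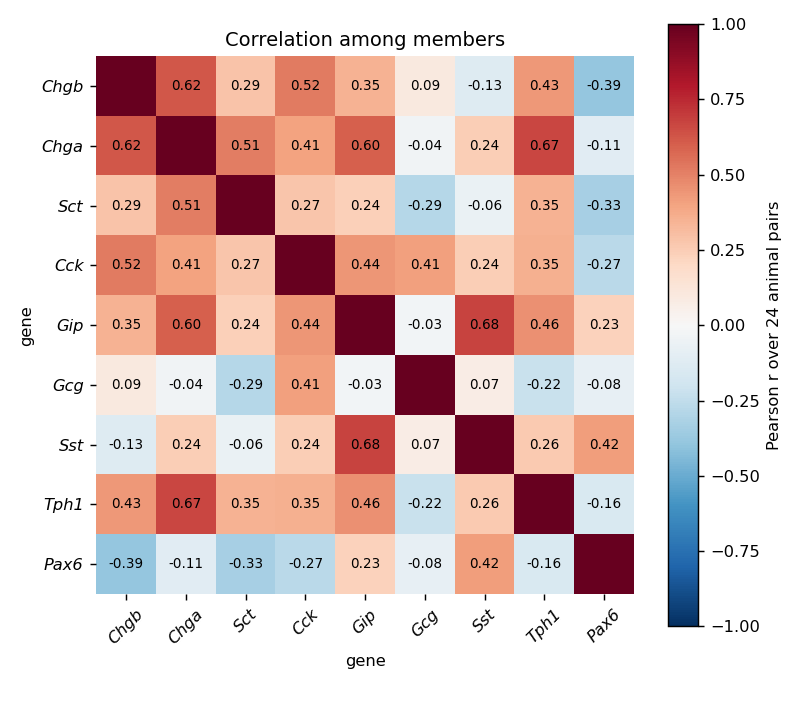
Pearson's r over the 24 animal pairs for each combination of the 9 members (rows and columns are genes, the colour scale runs from -1 to 1). Chga has the most combinations above 0.5, and Pax6 and Gcg are near or below 0 with most others.

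The search over the 13065 genes for those most like each member skipped predicted and clone-named genes. It also left out probes that held an array's most common value on 6 or more arrays. Among the remaining genes, the 3 most like each member had Pearson's r between 0.67 and 0.86 over the 24 pair values. For Chgb they were Xylb (0.76), Slc38a7 (0.72) and Fbxw9 (0.71), and for Chga Agpat3 (0.76), Mapk7 (0.74) and Nr1i2 (0.73). Sct was most like Zfyve27 (0.68), Rmdn2 (0.67) and Entpd8 (0.67), and Sst most like B3galt4 (0.82), Fzd8 (0.80) and Aspscr1 (0.76). Pax6 was closest to Prkcq (0.79), Rbl2 (0.79) and Smurf1 (0.74), and Cck to Gnas (0.75), Olfr318 (0.74) and Elp5 (0.73). The genes for Gip were Lrrc3 (0.73), Trpa1 (0.69) and Cacng7 (0.68). Those for Tph1 were Cdc37l1 (0.86), Sympk (0.85) and Rhobtb1 (0.84), and those for Gcg Vegfc (0.86), Dmac2l (0.84) and Ube2e1 (0.82). No member was among the 3 genes most like another member.

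Some members differed between the vehicle animals. Averaged over the 8 doses, Gcg was -0.18 against the vehicle animal of replicate 1, 0.01 against that of replicate 2 and -0.07 against that of replicate 3. Cck was -0.07, 0.03 and 0.06 in the same order. Chgb was 0.21, 0.09 and 0.22, above 0 against each of the 3. The hormone gene Nts, which encodes neurotensin and is no member, ranged most widely in this respect among the genes compared, with 0.12, 0.41 and -0.40.

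The other genes of the endocrine programme were read from fixed lists. Of 13 other gut hormone genes 9 were measured and 0 were called at any dose. Their median at 30 µg/kg was 0.02, from -0.12 for the urotensin gene Uts2 to 0.24 for Nts. Of 32 granule and secretion genes 18 were measured and 1 was called. Scg3, a granin-family protein that binds chromogranin A, fell at 0.3 µg/kg with -0.19, -0.31 and -0.35 (mean -0.29 ± 0.08, adjusted p 0.0122), and was at -0.06 at 30 µg/kg. Of the 186 genes called at 0.3 µg/kg, 183 were lower. The Scg3 call ended with each array centred (-0.20, adjusted p 0.169) and with replicate 1, 2 or 3 left out (adjusted p 0.067, 0.179 and 0.231). The prohormone convertase gene Pcsk1, which cuts prohormones, was at 0.03 and the carboxypeptidase gene Cpe at -0.13 at 30 µg/kg, neither called.

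Of 20 endocrine transcription factors 8 were measured and 0 were called, with a median of 0.02 at 30 µg/kg between Hhex (-0.18) and Myt1 (0.13). Of 18 nutrient receptor and sensor genes 11 were measured and 0 called, from the fatty acid receptor gene Ffar1 (-0.21) to the peptide transporter gene Slc15a1 (0.14). Of 21 hormone receptor genes 13 were measured and 0 called, from the tachykinin receptor gene Tacr1 (-0.06) to the ghrelin receptor gene Ghsr (0.19).

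The serotonin pathway had 10 of 12 genes measured and 0 called. Its lowest value at 30 µg/kg was that of Maob, a monoamine oxidase, with -0.17, -1.21 and -0.92 (mean -0.77 ± 0.54, adjusted p 0.0784). Ddc, which makes serotonin from its precursor and was singled out after its values were seen, had -0.87, -0.03 and -0.43 (mean -0.44 ± 0.42, adjusted p 0.0752). Its highest was Gch1, needed for the hydroxylase cofactor, at 0.21. Ddc is also expressed in absorptive cells of the epithelium. Of 16 enteric neuron and glia genes 9 were measured, 0 called and 0 above 0 at 30 µg/kg (median -0.07, from -0.20 for Tubb3 to -0.003 for Ret). Of 12 tuft cell genes 5 were measured and 0 called (median -0.09, from -0.11 for Pou2f3 to 0.03 for Alox5ap). For either list the background at 30 µg/kg was a median of -0.05 over all genes, of which 31.4% were above 0. In the islet list the values at 30 µg/kg ran from -0.24 for the glucose transporter gene Slc2a2 to 0.17 for Nkx6-1, a beta cell factor.

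Of the 18 exocrine pancreas genes 2 were called at 30 µg/kg, a dose at which 4.29% of all genes were called and 0.873% called higher. Klk1, a tissue kallikrein, had 1.79, 0.52 and 0.34 (mean 0.88 ± 0.79, adjusted p 0.0379), and the chymotrypsin-like protease gene Ctrl 1.10, 0.17 and 0.41 (mean 0.56 ± 0.48, adjusted p 0.0498). For Klk1 the call ended with replicate 1, 2 or 3 left out (adjusted p 0.388, 0.0706 and 0.0941), and for Ctrl with replicate 1 or 3 left out (0.387 and 0.191). With the pancreas median as a covariate Klk1 was 0.36 (adjusted p 0.294) and Ctrl 0.20 (adjusted p 0.38), neither called.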

How the data were processed

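RNA of jejunal epithelium was measured on 48 two-colour Agilent arrays. The values table deposited by the authors holds log ratios of 41085 probes, taken here as log2. Scanner software, background correction, normalization and filter are not given in the sources used here. Of the cells, 25.0% are empty, arrays hold 27341 to 33126 values, and no intensities are present, so the number of pairs limits the precision.

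The 2 arrays of a pair were averaged. Probes with a value on all 48 arrays and exactly 1 annotated gene (17836 of 21105) were averaged to 13065 genes. Symbols were matched by gene identifier for 32416 of 32555 probes. With limma 3.58.1 (R 4.3.3), lmFit and eBayes fitted 1 mean per dose over all 24 pairs, tested against 0 (two-sided), and a slope on log10 dose. A gene is called where its p, adjusted over all genes after Benjamini and Hochberg, is under 0.05. The test was tried on simulated data.

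The replicate number marks a shared vehicle animal, per the labels' titles. Deviations from the dose means correlated at 0.28 on average between ratios that share a vehicle animal (84 combinations) and at -0.14 between others (168). Deviations cancel over the 3 pairs of a dose, so the second value follows largely from the first and is no separate observation. The mean profiles of the dye orientations correlated at -0.59, and the lowest correlation between arrays of 1 orientation was -0.07.

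The members and lists were chosen with earlier results of these data known. Besides the members, the text names the 3 genes most like each, after the exclusions stated with them. From each list it names the genes called at any dose, or otherwise the highest and lowest at 30 µg/kg. Ins2, Pcsk1, Cpe and Ddc are named outside this rule. Alternatives covered the block, left-out replicates, centring, quantile normalization, single dyes, probe rules and pairs with pancreas signal.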

Additional observations from a re-analysis of the deposited data

How the results depend on the processing

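The number of member calls over the 8 doses, 1 as reported, was 2 with the replicate block for the vehicle animal and 2 with each array centred, where Sct at 30 µg/kg joined Chgb. It was 6 and 5 with only the arrays that held the treated animal in Cy5 or in Cy3, where the dye offset does not cancel. It was 0 with the pancreas median as a covariate, and 0 with only the pairs of the tested dose (4 of all genes called at 30 µg/kg). With the 6 pairs with pancreas signal left out, 30 µg/kg keeps only replicate 2, where Chgb was 0.11. Leaving out replicate 1, 2 or 3 gave 0 to 1 calls. Counted by probes complete at a dose, the 1 call became 2 with centring and 2 with the replicate block. The number of called slopes among members was 0 under 13 of 13 alternatives. The block changed no other call among the members' dose means and slopes. The cause of the changes was not tested, except that leaving out pairs or samples leaves fewer values.

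Over all genes at 30 µg/kg, 561 were called as reported, 1171 with the block, 279 with centring, 109 with quantile normalization, 1842 and 1061 with Cy5 or Cy3 alone, 150 with the covariate, 45 without the pancreas pairs, and 192 to 255 with a replicate left out. For slopes, 49 became 103 with the block, 82 with centring, 31 and 32 with a single dye, 0 without the pancreas pairs and 8 to 124 with a replicate left out.

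Chgb at 30 µg/kg ran from 0.11 to 0.53 over 19 alternatives and stayed called in 9 of them. The 0.11 is from the fit without the pancreas pairs, which keeps 1 pair at this dose. The limma adjusted p of Chgb was 0.00065 from Cy5 alone and 0.192 without replicate 3, and these 2 values are not the ends of its range. The sign of Chgb could not turn where pairs were left out, because all 3 of its pairs were above 0. The 19 include the contrast against the other doses, with and without the block, which is a different quantity. Without replicate 1 or 3 at 30 µg/kg alone, an alternative added after seeing the data, the adjusted p of Chgb was 0.0646 and 0.137. Of the 8 uncalled members, Tph1, Cck and Chga changed sign at 30 µg/kg. Tph1, 0.06 as reported, was -0.005 without replicate 1, -0.00095 without replicate 3, 0.20 without replicate 2, -0.0267 with Cy3 alone and -0.206 without the pancreas pairs. Cck, 0.05 as reported, was -0.0436 without replicate 3, 0.0946 without replicate 2 and -0.0510 without the pancreas pairs. Chga, 0.14 as reported, was -0.117 with Cy5 alone and -0.150 without the pancreas pairs. Precision is limited by 3 pairs per dose, 3 shared vehicle animals and the lack of intensities.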
